A study of Mus musculus with 16 samples.

Results

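5-hydroxymethylcytosine (5hmC) was described here over 6 genes of the STAT5 pathway and its SOCS feedback: Stat5a, Stat5b, Socs1, Socs2, Socs3 and Cish. Their members are all regions of the union count table that carry one of these symbols, 43 of 177720 regions (Socs3 12, Socs2 11, Stat5b 10, Stat5a 4, Socs1 4 and Cish 2). The cells were mouse CD4 T cells from the spleen and lymph nodes of C57BL/6 mice, 5 to 6 weeks old, which all carry a Foxp3-eGFP reporter. 2 groups were iTreg, differentiated in culture from naive CD4 cells, one with TGFβ, retinoic acid and vitamin C (RA+VitC iTreg) and one with TGFβ alone (TGFβ iTreg). The other 2 groups were sorted without culture, as eGFP-positive regulatory T cells (Treg) and as eGFP-negative CD25- CD62Lhi CD44lo naive cells. Whether iTreg were sorted after culture is not given in the labels. Each group had 2 libraries of DNA precipitated with serum against cytosine-5-methylenesulfonate (CMS), the product of 5hmC and bisulfite, and 2 input libraries, 16 in all. Nothing in the labels says that the 2 replicates of a group came from separate animals or cultures, so p-values measure the spread between these samples, which may be technical. The titles of both iTreg groups carry the same pair of tags, whose meaning the labels do not give.

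The total count over regions was 1648804 to 9731897 per pull-down and 1028822 to 1563165 per input library, so 3 reads, the limit that a count of 0 allows, were 0.308 to 1.82 CPM in pull-downs and 1.92 to 2.92 CPM in inputs. CPM are counts scaled to a common library total, with TMM-scaled library sizes for pull-downs. The totals count only reads in regions of the table, so CPM give a share of those reads. Pull-down CPM at or below input CPM therefore do not show that enrichment was absent. Intervals and floors cover counting error only. Pull-downs of RA+VitC iTreg held 3.88 and 3.14 times the counts of their inputs, those of TGFβ iTreg 1.49 and 1.72 times, those of Treg 4.90 and 6.33 times, and those of naive cells 5.50 and 6.39 times. Of the 2 TGFβ iTreg pull-downs, replicate 1 had the lower value for all 6 gene sums, and of the 2 RA+VitC iTreg pull-downs replicate 2 had the lower value for all but Stat5a. The part of this ratio in the results was not tested. Summed over 5 Treg marker genes (Foxp3, Il2ra, Ctla4, Ikzf2 and Ikzf4), pull-downs held 3251 and 3082 CPM in RA+VitC iTreg, 2350 and 2732 CPM in TGFβ iTreg, 2035 and 2060 CPM in Treg, and 745 and 732 CPM in naive cells. Foxp3 itself was higher than in naive cells in RA+VitC iTreg (log2 fold change 1.42 ± 0.13, SE) and Treg (1.25 ± 0.11), and stood at 0.19 ± 0.21 in TGFβ iTreg (adjusted p 0.49). All 7 T cell markers (Cd3e, Cd3g, Cd3d, Cd4, Cd2, Thy1 and Lck) were in the table and summed to 1625 and 1564 CPM in RA+VitC iTreg, 1196 and 1417 CPM in TGFβ iTreg, 1153 and 1171 CPM in Treg, and 1365 and 1353 CPM in naive cells. Against naive cells 5 of the 7 were lower and 2 (Cd2 and Thy1) higher in each iTreg group, and 6 were lower in Treg. The 6 B cell markers summed to 104 to 138 CPM over all groups. The 7 myeloid and dendritic markers summed to 193 and 217 CPM in RA+VitC iTreg, 270 and 297 CPM in TGFβ iTreg, 208 and 217 CPM in Treg, and 262 and 258 CPM in naive cells. The CD8 and NK markers (5 of 6 in the table) summed to 191 and 203 CPM in RA+VitC iTreg, 194 and 202 CPM in TGFβ iTreg, 310 and 307 CPM in Treg, and 354 and 354 CPM in naive cells. No marker in the table was at 0 in a group, and the part of these cells in the results was not tested. In such bulk DNA, fewer cells carrying the mark and less of the mark per cell cannot be told apart.

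STAT5A and STAT5B are latent transcription factors that Janus kinases phosphorylate at the receptors of interleukin 2, interleukin 7 and related cytokines, and regulatory T cells depend on this pathway for Foxp3 and for survival. The SOCS proteins are induced by STATs and close a feedback loop: CIS, the product of Cish, and SOCS2 bind phosphorylated receptors, SOCS1 and SOCS3 block the kinases, and all carry a SOCS box that recruits a ubiquitin ligase. 5hmC is made from methylated cytosine by TET enzymes, for which vitamin C is a cofactor, and is typically found in gene bodies and enhancers.

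The start sites of Cish, Socs1, Socs3 and the longer Stat5b transcript lay outside every region of the table, and those of Socs2, Stat5a and the shorter Stat5b transcript lay inside one. The distances from the uncovered starts to the nearest region were 540 bp for Cish, 1063 bp for Socs1, 808 bp for Socs3 and 451 bp for Stat5b, with the region on the other side 1129, 1579, 1179 and 1055 bp away. The promoter windows of these 4 genes are shown because their starts lie in gaps that the regions flank. Each window has 300 bases, 250 before and 50 after the start, from RefSeq on GRCm38.p6 (the regions themselves are on mm9). Windows were taken by gene symbol, and starts were not matched by coordinates between the builds. Capitals mark TTCNNNGAA, the motif that STAT5 dimers recognise, which reads alike on both strands and does not overlap itself here. Cish (chr9:107296409-107296708, plus strand), Socs1 (chr16:10785487-10785786, minus strand), Socs3 (chr11:117969317-117969616, minus strand) and Stat5b (the start farther upstream, chr11:100850532-100850831, minus strand) read as follows.
Cish: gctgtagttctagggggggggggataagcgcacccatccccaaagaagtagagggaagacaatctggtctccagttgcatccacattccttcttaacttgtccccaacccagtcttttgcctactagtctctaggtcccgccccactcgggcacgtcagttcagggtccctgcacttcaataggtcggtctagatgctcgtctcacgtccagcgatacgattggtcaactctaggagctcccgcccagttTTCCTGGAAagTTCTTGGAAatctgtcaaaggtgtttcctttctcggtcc
Socs1: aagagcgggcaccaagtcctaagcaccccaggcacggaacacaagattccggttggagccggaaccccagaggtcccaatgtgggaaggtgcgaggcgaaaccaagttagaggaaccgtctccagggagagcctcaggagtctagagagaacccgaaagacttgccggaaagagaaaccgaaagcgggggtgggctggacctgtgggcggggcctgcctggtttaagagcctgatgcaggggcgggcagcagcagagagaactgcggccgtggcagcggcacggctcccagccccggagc
Socs3: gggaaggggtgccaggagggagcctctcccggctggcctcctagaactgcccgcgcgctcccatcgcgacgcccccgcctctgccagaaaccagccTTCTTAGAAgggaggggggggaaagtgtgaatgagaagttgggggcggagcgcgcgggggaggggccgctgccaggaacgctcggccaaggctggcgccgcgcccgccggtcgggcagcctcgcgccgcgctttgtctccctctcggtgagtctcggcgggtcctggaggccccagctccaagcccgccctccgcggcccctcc
Stat5b: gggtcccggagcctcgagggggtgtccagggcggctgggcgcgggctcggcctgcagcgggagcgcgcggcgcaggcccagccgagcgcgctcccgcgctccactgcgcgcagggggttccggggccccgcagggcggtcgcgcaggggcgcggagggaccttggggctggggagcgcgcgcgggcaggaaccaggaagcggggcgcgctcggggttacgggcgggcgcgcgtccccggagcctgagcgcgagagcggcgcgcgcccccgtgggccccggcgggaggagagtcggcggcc

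The Cish window held 2 matches, TTCCTGGAA from base 251 of the window, at the start itself, and TTCTTGGAA from base 262. The Socs3 window held 1 match, TTCTTAGAA, from base 97, which is 154 bases before the start. Among 32851 RefSeq promoter windows of the same length 8.30% held at least 1 match and 0.457% at least 2. The windows of Socs1, Stat5a and Stat5b held none of these letters. No window of Socs2 was among those at hand, so its promoter was not searched. CpG dinucleotides numbered 11 in the Cish window, 18 in Socs1, 31 in Socs3 and 50 in Stat5b, against a median of 7 over all windows (lower quartile 3, upper quartile 20). A match is a description of the letters and not of a bound site.

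Reads were summed per gene over its regions, which cover 16.4 kb for Cish to 67.7 kb for Stat5b. The CPM of gene sums use the TMM factors of the region fit, and their log2 fold changes those of the fit to gene sums. Small log2 fold changes can therefore differ from the ratio of the CPM given beside them. Socs2, Cish and Socs1 had the large differences, while those of Socs3, Stat5a and Stat5b were at most 0.51 on the log2 scale in any of the 6 pairs of groups. In RA+VitC iTreg against naive cells 5 of the 6 gene sums were higher, where edgeR called 55.8% of 14952 genes, 29.2% higher and 26.6% lower. In TGFβ iTreg against naive cells 3 were higher and 1 lower, against a background of 41.6% called, 23.4% higher and 18.2% lower. In Treg against naive cells 3 were higher, against 39.2% called, 20% higher and 19.2% lower. These 3 comparisons share the naive libraries. With plain library sizes in place of TMM the count in RA+VitC iTreg against naive cells became 4 higher and 1 lower.

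**Figure D1:**
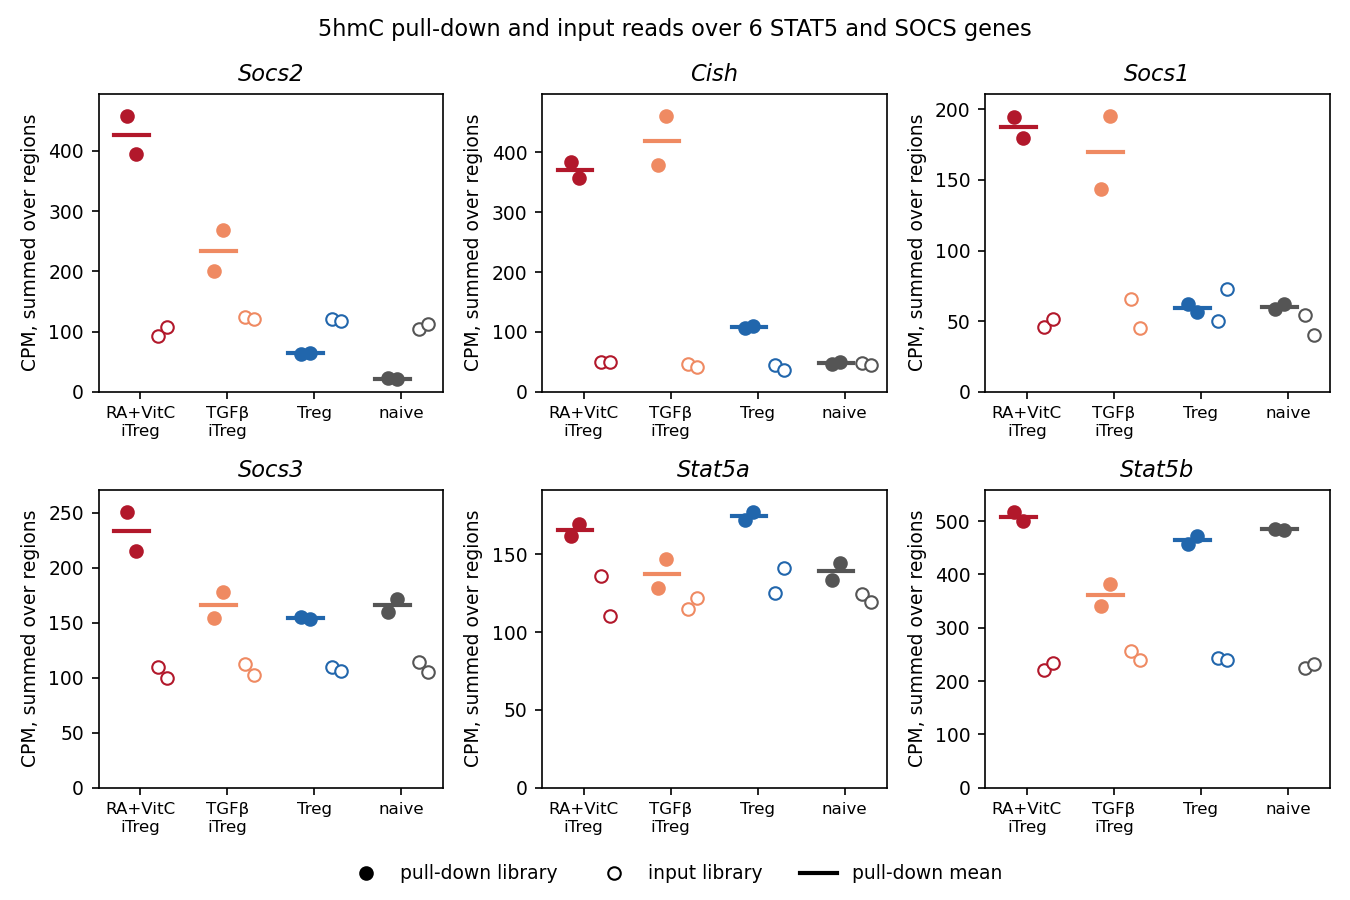
Pull-down (filled) and input (open) CPM summed over the regions of each gene, 2 libraries per group, with a line at the pull-down mean. Socs2, Cish and Socs1 separate both iTreg groups from Treg and naive cells. The inputs of these genes spread less than their pull-downs, with those of Socs1 from 40.1 CPM (naive replicate 2) to 72.8 CPM (Treg replicate 2).

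**Figure D2:**
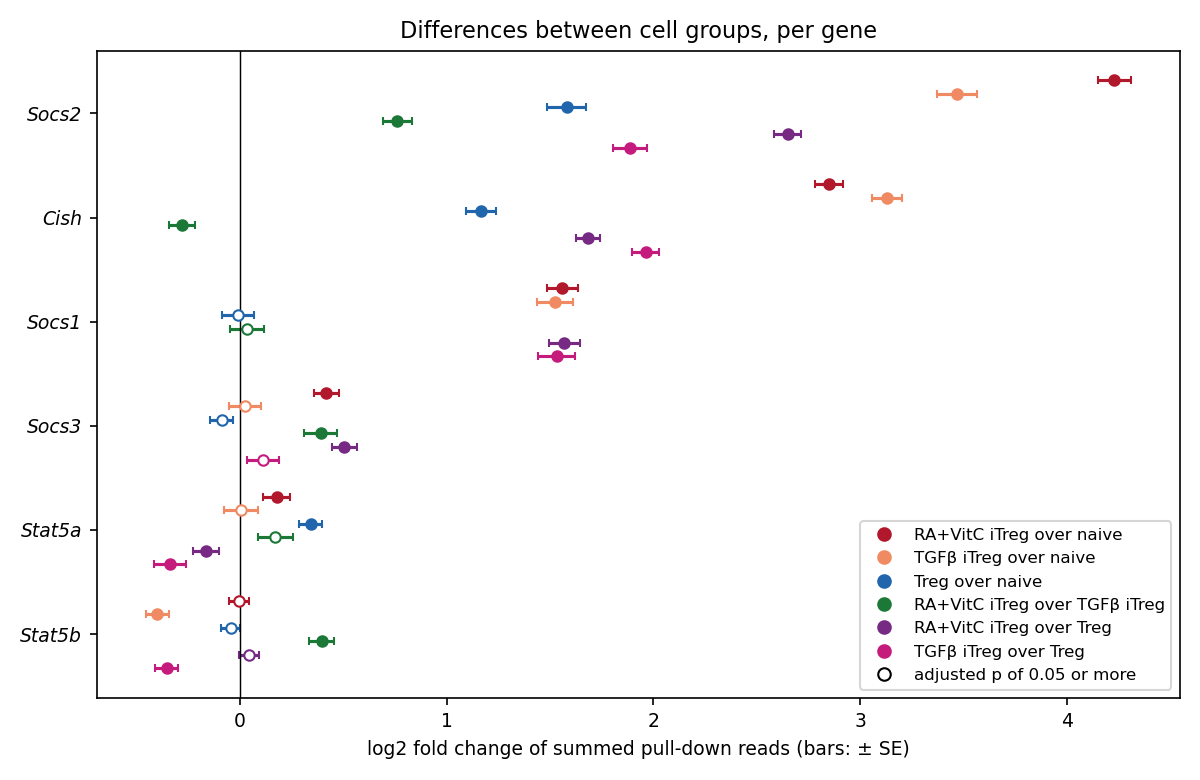
Log2 fold change of each gene sum in the 6 comparisons, from edgeR, with the SE derived from its F statistic. Open points did not pass the adjusted p of 0.05, and the largest value is that of Socs2 in RA+VitC iTreg over naive cells (4.23).

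Socs2, whose product is best known for damping growth hormone signalling, had the largest difference. Its regions held 459 and 395 CPM in RA+VitC iTreg, 201 and 268 CPM in TGFβ iTreg, 62.9 and 65.1 CPM in Treg, and 22.1 and 21.2 CPM in naive cells. No 2 groups overlapped, and the order ran from RA+VitC iTreg through TGFβ iTreg and Treg to naive cells. Input libraries averaged 100.3, 123, 119 and 109 CPM in the same groups. As a share of reads in regions, the pull-down lay above input in both iTreg groups and below it in Treg and naive cells. In reads, Treg pull-downs held 514 and 573 against 188 and 154 in inputs. Naive pull-downs held 180 and 215 reads against 147 and 172 in inputs. Socs2 was 18.8-fold higher in RA+VitC iTreg than in naive cells (log2 fold change 4.23 ± 0.08, SE, adjusted p 1.3e-85). In TGFβ iTreg it was 11.1-fold higher (3.47 ± 0.10, adjusted p 3.6e-64) and in Treg 2.99-fold higher (1.58 ± 0.10, adjusted p 2.5e-31).

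Most Socs2 reads (72.9%) lay in 1 region of 20.9 kb, chr10:94856328-94877201 (mm9), which covers promoter, exon, intron and 3′ UTR and reaches 1458 bp upstream of the start. It held 1277 and 1078 reads in RA+VitC iTreg, 264 and 421 in TGFβ iTreg, 323 and 347 reads in Treg, and 89 and 108 reads in naive cells. These are 363 and 313 CPM, 152 and 203 CPM, 39.5 and 39.4 CPM, and 10.9 and 10.7 CPM, again with no overlap between groups. Against naive cells the log2 fold change was 4.95 ± 0.10 in RA+VitC iTreg, 4.04 ± 0.13 in TGFβ iTreg (adjusted p 2.2e-222) and 1.87 ± 0.13 in Treg (adjusted p 9.6e-44). Further regions lay between this gene's 3′ end and Cradd. The region chr10:94821723-94824013, 23982 bp past the transcript and nearer to the start of Cradd, held 23.9 and 22.9 CPM in RA+VitC iTreg, 10.4 and 14.0 CPM in TGFβ iTreg, 1.71 and 2.16 CPM in Treg, and 0.984 and 0.790 CPM in naive cells. Its log2 fold changes against naive cells were 4.69 ± 0.28, 3.77 ± 0.39 and 1.13 ± 0.43, the last with an adjusted p of 0.038. The region chr10:94833528-94835137, 12858 bp past the transcript, held 17.9 and 15.97 CPM in RA+VitC iTreg, 8.63 and 23.7 CPM in TGFβ iTreg, 3.92 and 3.41 CPM in Treg, and 1.35 and 0.790 CPM in naive cells. Here the 2 iTreg groups overlapped, with log2 fold changes against naive cells of 3.98 ± 0.29 and 3.97 ± 0.34. Of the 10 Socs2 regions tested (1 was not), 9 rose in RA+VitC iTreg, 7 in TGFβ iTreg and 6 in Treg, each against naive cells, where 21.9%, 13.1% and 13% of all regions rose.

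**Figure D3:**
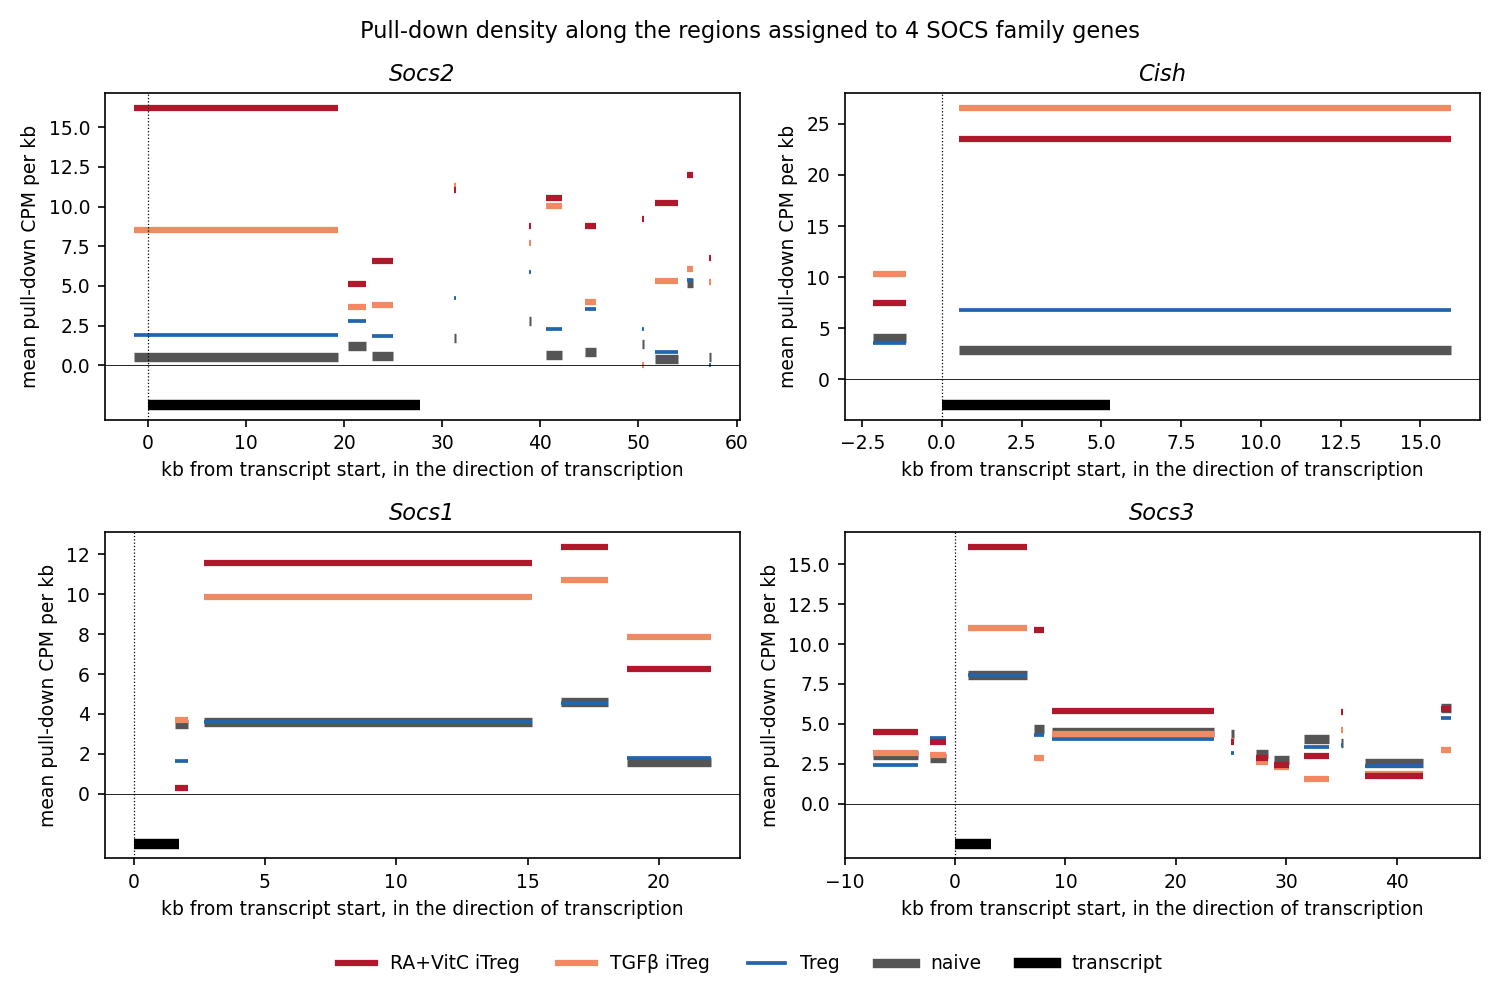
Mean pull-down CPM per kb in each region of Socs2, Cish, Socs1 and Socs3, along the distance in kb from the transcript's start; coloured bars are the 4 groups (2 libraries each) and the black bar is the transcript. At Socs2 and Cish the high iTreg signal spans the gene and its downstream side, and at Socs1 it lies downstream of the transcript. At Socs3 the highest iTreg density lies over the transcript's 3′ part and just past its end.

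Cish, a classical target of STAT5, had the highest density of the 6 genes in both iTreg groups. Its regions held 383 and 357 CPM in RA+VitC iTreg, 378 and 461 CPM in TGFβ iTreg, 107 and 110 CPM in Treg, and 47.1 and 50.4 CPM in naive cells. The 2 iTreg groups overlapped, both lay above Treg, and Treg lay above naive cells. Inputs averaged 49.4, 43.3, 40.2 and 46.4 CPM in the same groups, so in their share of reads in regions naive cells stood at the level of input. In reads, the naive pull-downs held 383 and 510 and the naive inputs 67 and 69. Against naive cells Cish was 7.20-fold higher in RA+VitC iTreg (log2 fold change 2.85 ± 0.07, adjusted p 1.3e-73), 8.75-fold higher in TGFβ iTreg (3.13 ± 0.07, adjusted p 2.1e-73) and 2.24-fold higher in Treg (1.17 ± 0.07, adjusted p 9.1e-31).

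The gene has 2 regions, on either side of its start. The large one, chr9:107199560-107214980, holds 96.7% of the reads, covers 5′ UTR, exon, intron and 3′ UTR, and runs 10688 bp past the transcript's end. It held 374 and 351 CPM in RA+VitC iTreg, 367 and 451 CPM in TGFβ iTreg, 103 and 106 CPM in Treg, and 42.9 and 46.2 CPM in naive cells, with log2 fold changes against naive cells of 3.004 ± 0.09, 3.19 ± 0.09 and 1.23 ± 0.09. The promoter region chr9:107196871-107197891 was weaker, with 8.82 and 6.39 CPM in RA+VitC iTreg, 10.9 and 10.1 CPM in TGFβ iTreg, 3.43 and 3.75 CPM in Treg, and 4.18 and 4.15 CPM in naive cells. There the log2 fold change was 0.85 ± 0.28 in RA+VitC iTreg (adjusted p 0.0078) and 1.32 ± 0.31 in TGFβ iTreg (adjusted p 0.00024), and -0.21 ± 0.26 in Treg (adjusted p 0.61). The window with the 2 TTCNNNGAA matches printed above is that of the RefSeq start of Cish. It was not matched by coordinates to the mm9 start between these regions.

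Socs1, the inhibitor of Janus kinases and of interferon and interleukin 2 signalling, was higher in both iTreg groups and did not pass the test in Treg. Its regions held 194 and 180 CPM in RA+VitC iTreg, 144 and 196 CPM in TGFβ iTreg, 62.1 and 56.8 CPM in Treg, and 58.6 and 62.0 CPM in naive cells. Treg and naive cells overlapped, and so did the 2 iTreg groups. Inputs averaged 48.7, 55.7, 61.4 and 47.3 CPM. The log2 fold change against naive cells was 1.56 ± 0.07 in RA+VitC iTreg (adjusted p 2.8e-41), 1.52 ± 0.09 in TGFβ iTreg (adjusted p 4.9e-33) and -0.01 ± 0.08 in Treg (adjusted p 0.94).

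The signal lay downstream of the short Socs1 transcript. The largest region, chr16:10770455-10782965, is intergenic, begins 936 bp past the transcript's end and holds 75.5% of the reads. It held 149 and 140 CPM in RA+VitC iTreg, 104 and 143 CPM in TGFβ iTreg, 45.7 and 43.8 CPM in Treg, and 42.9 and 47.3 CPM in naive cells. Against naive cells its log2 fold change was 1.66 ± 0.09 in RA+VitC iTreg and 1.45 ± 0.11 in TGFβ iTreg. The intergenic region chr16:10763644-10766843, 17058 bp past the transcript, stood at 1.95 ± 0.20 and 2.29 ± 0.23. The region over exon and 3′ UTR of the gene itself, chr16:10783543-10784050, went the other way in RA+VitC iTreg. It held 1 and 0 reads in RA+VitC iTreg, 4 and 3 in TGFβ iTreg, 6 and 8 reads in Treg, and 16 and 16 reads in naive cells. The rate in RA+VitC iTreg was 0.082 of that in naive cells (exact binomial 95% interval 0.00201 to 0.491), and edgeR gave an adjusted p of 0.0046. Counted only over regions that overlap a transcript, which leaves this region alone, Socs1 was lower in RA+VitC iTreg than in naive cells (log2 fold change -3.46, adjusted p 0.00237) and than in TGFβ iTreg (-3.60, adjusted p 0.0287). The TGFβ iTreg calls were lost there, at 0.15 against naive cells (adjusted p 0.895) and 1.19 against Treg (adjusted p 0.264). The RA+VitC iTreg values rest on 1 read and depend on the model's prior count. With DESeq2 no region of the 6 genes, this one included, was called lower in RA+VitC iTreg than in naive cells.

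Socs3, which blocks Janus kinases at receptors that use gp130, was higher in RA+VitC iTreg alone by the tests against naive cells. Its regions held 251 and 216 CPM in RA+VitC iTreg, 155 and 178 CPM in TGFβ iTreg, 155 and 154 CPM in Treg, and 160 and 172 CPM in naive cells. RA+VitC iTreg lay above all other groups, and the other groups lay close together, TGFβ iTreg overlapping both of the others. Inputs averaged 105 to 110 CPM. The log2 fold change against naive cells was 0.42 ± 0.06 in RA+VitC iTreg (adjusted p 1.3e-09), 0.03 ± 0.08 in TGFβ iTreg (adjusted p 0.82) and -0.09 ± 0.06 in Treg (adjusted p 0.22). The difference between the 2 iTreg groups was itself called (0.39 ± 0.08, adjusted p 3.7e-05).

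The 12 Socs3 regions (2 not tested) did not move together. The region chr11:117824205-117829501 (exon and 3′ UTR) covers the transcript's 3′ part and runs past its end. It held 92.5 and 77.8 CPM in RA+VitC iTreg, 54.1 and 62.8 CPM in TGFβ iTreg, 40.9 and 44.7 CPM in Treg, and 40.5 and 45.0 CPM in naive cells. It rose against naive cells in RA+VitC iTreg (0.97 ± 0.10, adjusted p 1.6e-20) and in TGFβ iTreg (0.44 ± 0.13, adjusted p 0.0052), with RA+VitC iTreg above TGFβ iTreg above the overlapping sorted groups. Downstream, chr11:117822612-117823534 held 41 and 29 reads in RA+VitC iTreg, 5 and 5 in TGFβ iTreg, 38 and 29 reads in Treg, and 36 and 43 reads in naive cells. At 11.7 and 8.42 CPM the RA+VitC iTreg libraries lay above all others, and its log2 fold change was 1.20 ± 0.26 against naive cells (adjusted p 2.2e-05) and 1.92 ± 0.43 against TGFβ iTreg (adjusted p 0.00037). Farther downstream, 28349 bp past the transcript, chr11:117796794-117799051 had 3.45 and 3.38 CPM in TGFβ iTreg against 9.23 and 8.98 CPM in naive cells, and fell by 1.42 on the log2 scale (SE 0.37, adjusted p 0.0012). The region with the most reads, chr11:117807266-117821868, is intergenic and rose by 0.35 ± 0.10 in RA+VitC iTreg (adjusted p 0.0012). At the promoter region chr11:117831488-117832948 no comparison with naive cells passed (log2 fold changes 0.41, 0.09 and 0.53, adjusted p 0.29, 0.91 and 0.083). Over transcript-overlapping regions alone the Socs3 sum of TGFβ iTreg was also higher than that of naive cells (0.53, adjusted p 0.000148).

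Stat5a and Stat5b lie head to head on chromosome 11. Stat5a held 162 and 170 CPM in RA+VitC iTreg, 128 and 147 CPM in TGFβ iTreg, 172 and 178 CPM in Treg, and 134 and 145 CPM in naive cells. Treg stood highest and TGFβ iTreg overlapped naive cells. Inputs averaged 118 to 133 CPM, so no group was far above input in its share of reads in regions. Stat5a was higher than in naive cells in Treg (0.34 ± 0.05, adjusted p 5.8e-08) and in RA+VitC iTreg (0.18 ± 0.06, adjusted p 0.014), and stood at 0.01 ± 0.08 in TGFβ iTreg (adjusted p 0.96). The RA+VitC call was lost with DESeq2 (0.19, adjusted p 0.0598), with plain library sizes (0.02), at equal depth (0.16, adjusted p 0.232), in the fit against input (0.15, adjusted p 0.414), without replicate 2 of RA+VitC iTreg (0.14) and without replicate 1 of naive cells (0.13). The Treg call was lost in the fit against input (0.24, adjusted p 0.179).

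Stat5b held 518 and 499 CPM in RA+VitC iTreg, 342 and 382 CPM in TGFβ iTreg, 457 and 472 CPM in Treg, and 485 and 484 CPM in naive cells. TGFβ iTreg lay below every other group, all of them above the inputs (227 to 248 CPM on average). Stat5b fell by 0.40 on the log2 scale in TGFβ iTreg against naive cells (SE 0.06, adjusted p 1.1e-09). The differences from naive cells were -0.00 ± 0.05 in RA+VitC iTreg (adjusted p 0.97) and -0.04 ± 0.04 in Treg (adjusted p 0.46). With plain library sizes, which move the median of all genes to -0.17 in RA+VitC iTreg against naive cells, to -0.11 in RA+VitC against TGFβ iTreg and to -0.18 in RA+VitC iTreg against Treg, Stat5b was lower in RA+VitC iTreg than in naive cells (-0.16, adjusted p 0.000794). That is the size of the shift of all genes.

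**Figure D4:**
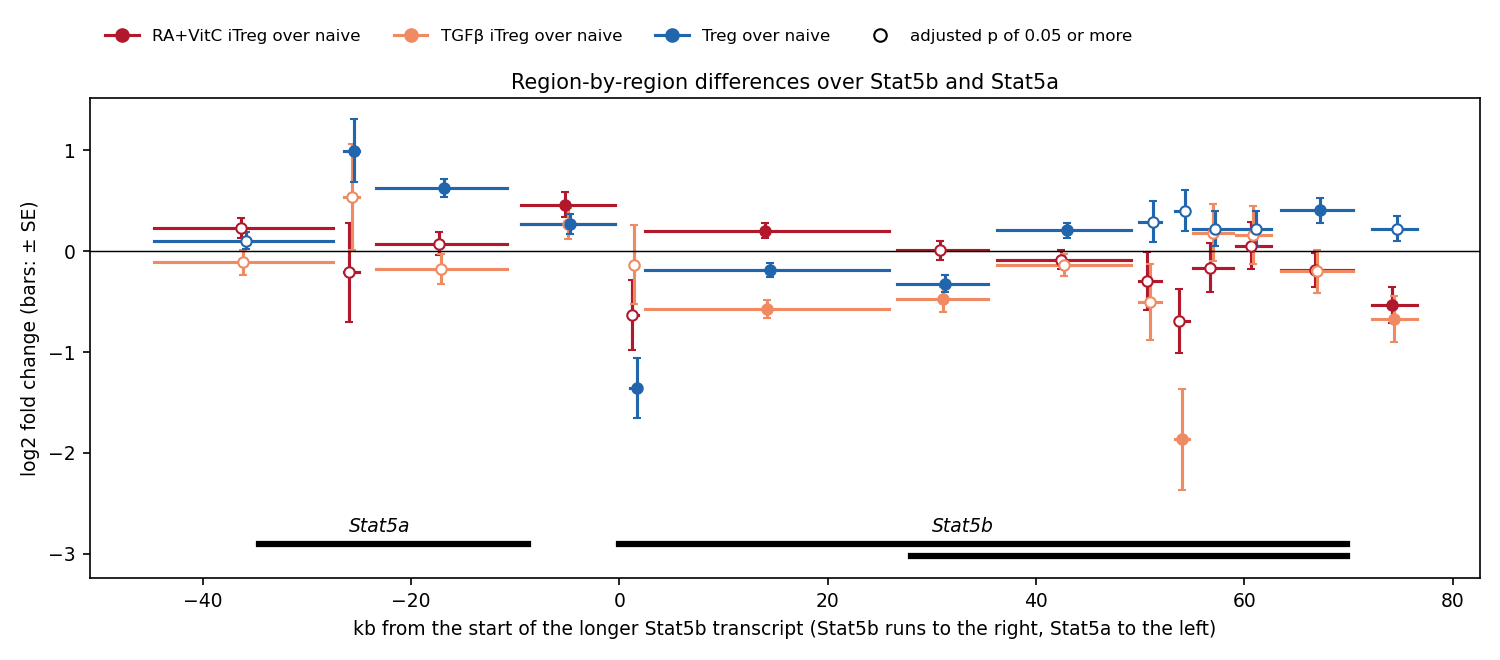
Log2 fold change against naive cells, with SE, of each Stat5a and Stat5b region along the distance in kb from the start of the longer Stat5b transcript. Horizontal bars show each region's width, black bars the transcripts, and open points an adjusted p of 0.05 or more. In Treg, 3 of 4 Stat5a regions rose while the 3 Stat5b regions nearest the longer start fell. These 3 falls were not called with DESeq2 or in the fit against input, which tested 31 member regions. A region without an adjusted p in a fit also counts as not called.

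Of the Stat5a regions 3 of 4 rose in Treg against naive cells, and of the Stat5b regions 2 of 10 rose and 3 fell, where 13% of all regions rose and 10.1% fell. The difference between the 2 genes was not tested. Over the regions of all 6 genes, no fall in Treg was called with DESeq2 (6 rose and 0 fell). The fit against input gave 4 and 0 of 31 tested, and equal depth 6 and 1 of 30 tested. Within Stat5a, chr11:100722637-100735300 (5′ UTR, exon and intron) held 63.0 and 64.7 CPM in Treg against 41.2 and 41.7 CPM in naive cells, a log2 fold change of 0.62 ± 0.09 (adjusted p 2.8e-10). In the same region the iTreg libraries lay at 41.8 and 46.5 CPM (RA+VitC) and 32.2 and 41.0 CPM (TGFβ), around the naive level and below that of Treg. The small region chr11:100736882-100738325 near the 3′ end also rose in Treg (0.99 ± 0.31, adjusted p 0.01). The region from the Stat5b side over the Stat5a start, chr11:100712350-100721338, annotated as promoter, 5′ UTR, exon and intron of Stat5a, held 43.8 and 43.3 CPM in RA+VitC iTreg, 33.4 and 42.0 CPM in TGFβ iTreg, 36.4 and 38.8 CPM in Treg, and 28.2 and 34.0 CPM in naive cells. It rose in RA+VitC iTreg (0.46 ± 0.12, adjusted p 0.00078) and in Treg (0.27 ± 0.10, adjusted p 0.042). The Stat5a region with the most reads, chr11:100739365-100756604, also overlaps Stat3, the neighbouring gene, and did not pass in any comparison with naive cells (adjusted p 0.057 in RA+VitC iTreg).

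The region chr11:100686026-100709384, annotated as promoter and intron, held 49.6% of the Stat5b reads. It held 300 and 271 CPM in RA+VitC iTreg, 144 and 185 CPM in TGFβ iTreg, 216 and 214 CPM in Treg, and 246 and 245 CPM in naive cells. The groups did not overlap. RA+VitC iTreg stood above naive cells (0.20 ± 0.07, adjusted p 0.021), Treg below (-0.19 ± 0.07, adjusted p 0.032) and TGFβ iTreg farthest below (-0.58 ± 0.09, adjusted p 2.8e-09). The next region toward the 3′ end, chr11:100676468-100685207, which holds the shorter transcript's start, had 74.8 and 80.1 CPM in RA+VitC iTreg, 53.5 and 56.5 CPM in TGFβ iTreg, 60.8 and 60.9 CPM in Treg, and 75.2 and 77.0 CPM in naive cells, and fell in TGFβ iTreg (-0.48, adjusted p 0.0011) and Treg (-0.32, adjusted p 0.0013). Of the Stat5b regions, that closest to the longer start, chr11:100710068-100710844, fell in Treg. It held 2.204 and 1.59 CPM in Treg against 4.43 and 5.23 CPM in naive cells (log2 fold change -1.36 ± 0.30). The region over the Stat5a start lies nearer to that longer start, 451 bp away against 1055 bp. It rose in Treg (0.27 ± 0.10, adjusted p 0.042). The exon and intron region chr11:100657227-100658547 fell by 1.87 in TGFβ iTreg (SE 0.50, adjusted p 0.0019) on only 2 and 4 reads in TGFβ iTreg, against 52 and 53 in naive cells. The region chr11:100662782-100675642 (5′ UTR, exon and intron) rose in Treg (0.20 ± 0.08, adjusted p 0.039). The intergenic region chr11:100635366-100639636, 2408 bp past the 3′ end, fell in both iTreg groups (-0.53 and -0.67). Its RA+VitC iTreg call was lost with DESeq2.

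Between the 2 iTreg conditions, which differ by retinoic acid and vitamin C, 3 of 6 gene sums were higher in RA+VitC iTreg and 1 was lower, where 23.1% of all genes were called, 12.4% higher and 10.7% lower. Socs2 was 1.69-fold higher (log2 fold change 0.76 ± 0.07, adjusted p 1.4e-17), Stat5b 0.40 ± 0.06 higher (adjusted p 3.1e-08) and Socs3 0.39 ± 0.08 higher, all on the log2 scale. Cish was lower, at -0.28 ± 0.06 (adjusted p 0.00017), with 383 and 357 CPM in RA+VitC iTreg against 378 and 461 CPM in TGFβ iTreg, which overlap. The Cish call was lost without replicate 2 of TGFβ iTreg (-0.15, adjusted p 0.20) and in the fit against input (-0.48, adjusted p 0.137), where that of Socs3 was lost too (0.43, adjusted p 0.0558). Socs1 (0.04 ± 0.08, adjusted p 0.82) and Stat5a (0.17 ± 0.09, adjusted p 0.14) did not pass. In the large Socs2 region the difference was 0.91 ± 0.09 (adjusted p 2.6e-22) and in the large Stat5b region 0.78 ± 0.09 (adjusted p 2.7e-14).

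Against Treg, Socs2, Cish and Socs1 were higher in both iTreg groups. In RA+VitC iTreg the log2 fold changes were 2.65 ± 0.07 for Socs2 (adjusted p 3.3e-70), 1.68 ± 0.06 for Cish (adjusted p 1.5e-53) and 1.57 for Socs1 (adjusted p 1.1e-40), and Socs3 was higher as well (0.51 ± 0.06). In TGFβ iTreg they were 1.89 ± 0.08 for Socs2, 1.96 ± 0.07 for Cish and 1.53 ± 0.09 for Socs1, and Socs3 did not pass (0.11, adjusted p 0.26). Stat5a was lower than in Treg in TGFβ iTreg (-0.34 ± 0.08, adjusted p 0.00019) and in RA+VitC iTreg (-0.16 ± 0.06, adjusted p 0.023), and Stat5b was lower in TGFβ iTreg (-0.35 ± 0.06, adjusted p 7.7e-08). These make 4 higher and 1 lower in RA+VitC iTreg (background 49.7% called, 26.6% higher and 23.1% lower; 4 and 2 with plain library sizes) and 3 higher and 2 lower in TGFβ iTreg (35.8%, 20.8% and 15.1%). The RA+VitC call of Stat5a was lost with DESeq2 (adjusted p 0.131), at equal depth (-0.19, adjusted p 0.121), over transcript-overlapping regions (-0.15, adjusted p 0.0547), without replicate 1 of RA+VitC iTreg (-0.12) and without replicate 2 of Treg (-0.15), and both Stat5a calls were lost in the fit against input (-0.09 and -0.21).

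Region by region, 40 of the 43 regions were tested. Against naive cells 20 rose and 3 fell in RA+VitC iTreg (background 37.8% of 135412 regions called, 21.9% higher and 15.8% lower), 13 rose and 5 fell in TGFβ iTreg (21.3%, 13.1% and 8.28%), and 12 rose and 3 fell in Treg (23.1%, 13% and 10.1%). With plain library sizes the split in RA+VitC iTreg became 15 up and 9 down. It was 17 up and 0 down with DESeq2, 16 and 0 of 30 tested at equal depth, and 10 and 2 of 31 tested in the fit against input. In RA+VitC against TGFβ iTreg 7 rose (background 6.58% called, 4.6% higher and 1.98% lower), or 4 with 1 lower under plain library sizes. Against Treg 19 rose and 6 fell in RA+VitC iTreg (29.2%, 17.8% and 11.4%; 17 and 9 under plain library sizes) and 11 rose and 7 fell in TGFβ iTreg (15.4%, 9.55% and 5.88%). Without 1 library the calls in either direction dropped to 15 in RA+VitC iTreg against naive cells (replicate 1 of RA+VitC iTreg left out), 8 in Treg against naive cells (replicate 2 of naive cells), 4 between the iTreg conditions (replicate 1 of TGFβ iTreg) and 9 in TGFβ iTreg against Treg (replicate 2 of TGFβ iTreg). In the inputs edgeR called 0 of the 6 gene sums and 0 of 24 tested member regions in each of the 6 comparisons, with 0 to 1 gene sums and 0 to 3 regions at an unadjusted p under 0.05. Over all 12825 genes tested in the inputs a comparison gave at most 35 calls.

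Per kb of covered sequence the order of the 6 genes differed between groups. In RA+VitC iTreg the pull-down density was 22.5 ± 1.12 CPM per kb for Cish, 13.6 ± 1.42 for Socs2, 10.4 ± 0.56 for Socs1, 7.52 ± 0.19 for Stat5b, 6.21 ± 0.67 for Socs3 and 4.12 ± 0.13 for Stat5a (SD, n = 2), and no neighbours in this order overlapped. In TGFβ iTreg it was 25.5 ± 3.58 CPM per kb for Cish, 9.42 ± 2.03 for Socs1, 7.47 ± 1.52 for Socs2, 5.34 ± 0.42 for Stat5b, 4.42 ± 0.43 for Socs3 and 3.41 ± 0.33 for Stat5a, with Socs1 and Socs2 within their spread. In Treg, Stat5b (6.86 ± 0.17) and Cish (6.59 ± 0.16) led, with overlapping intervals of 1 SD, before Stat5a (4.34 ± 0.09), Socs3 (4.12 ± 0.03), Socs1 (3.30 ± 0.21) and Socs2 (2.04 ± 0.05). In naive cells Stat5b led with 7.16 ± 0.02, Socs3 (4.42 ± 0.22), Stat5a (3.45 ± 0.19), Socs1 (3.35 ± 0.13) and Cish (2.96 ± 0.14) followed, of which Stat5a and Socs1 did not differ beyond their spread, and Socs2 was lowest at 0.691 ± 0.02. Input densities of the 6 genes lay between 2.45 and 3.92 CPM per kb in all groups, and the pull-down density of Socs2 lay below this range in Treg and naive cells. Both densities are shares of reads in regions, so this does not show that Socs2 lacked enrichment over input.

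Other genes of the pathway were taken from lists chosen with earlier results of these data known. Of 17 STAT5 target genes tested (18 listed), 14 were higher and 2 lower in RA+VitC iTreg against naive cells, 11 higher and 2 lower in TGFβ iTreg, and 8 higher and 2 lower in Treg. Over all genes 29.2% were higher and 26.6% lower in RA+VitC iTreg, 23.4% and 18.2% in TGFβ iTreg, and 20% and 19.2% in Treg, and these shares also stand against the counts of the other lists. The list's median log2 fold change was 0.62, 0.24 and 0.12, beside -0.02, -0.02 and -0.00 over all genes. Il2ra, the high-affinity chain of the interleukin 2 receptor, stood at 3.04 ± 0.05 in RA+VitC iTreg, 2.75 ± 0.06 in TGFβ iTreg and 1.22 ± 0.05 in Treg. Lta, encoding lymphotoxin alpha, stood at 2.29, 1.62 and 0.54, and the kinase gene Pim1 at 1.64, 1.45 and 0.45, all of them called. The genes that fell were cyclins, Ccnd2 (-0.35 in RA+VitC and -0.85 in TGFβ iTreg) and Ccnd3 (-0.30, -0.63 and -0.28), and in Treg also the survival gene Bcl2 (-0.20), which was higher in both iTreg groups.

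Upstream of STAT5, 9 receptor chains gave 5 higher and 3 lower in RA+VitC iTreg, 2 and 2 in TGFβ iTreg, and 4 and 4 in Treg, each against naive cells, and the TGFβ iTreg count is near the 23.4% and 18.2% of all genes. Il2rb, the signalling chain of the interleukin 2 receptor, rose by 1.999 in RA+VitC iTreg, 1.93 in TGFβ iTreg and 1.27 in Treg. Il7r, the interleukin 7 receptor chain typical of naive cells, fell by 0.38 in RA+VitC iTreg and by 0.66 in Treg and stood at 0.04 in TGFβ iTreg (adjusted p 0.66). Of the 6 ligand genes tested (7 listed), 2 rose and 2 fell in RA+VitC iTreg, 2 rose and 1 fell in TGFβ iTreg, and 1 rose and 3 fell in Treg. Il2 itself was higher in TGFβ iTreg (0.46) and RA+VitC iTreg (0.20) and lower in Treg (-0.61). Among 4 Janus kinases Jak2 was higher in all 3 groups (0.80, 0.42 and 0.43) and Jak1, which serves these receptors, lower (-0.19, -0.35 and -0.32). Over that list 1 rose and 2 fell in RA+VitC iTreg, 1 rose and 1 fell in TGFβ iTreg, and 2 rose and 1 fell in Treg. Among other STATs, Stat4 rose in all 3 groups (0.95, 0.74 and 0.31), while Stat3, next to Stat5a, rose in RA+VitC iTreg (0.75) and Treg (0.35) and stood at 0.03 in TGFβ iTreg (adjusted p 0.82).

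Among the feedback arm outside the 6 genes, only Socs5 of the 4 other SOCS genes was called higher in both iTreg groups (0.25, adjusted p 0.0013, in RA+VitC iTreg and 0.20 in TGFβ iTreg, where the adjusted p of 0.05 lies at the threshold), and Socs4 and Socs5 rose in Treg (0.35 and 0.55). Over Socs4 to Socs7 the log2 fold changes against naive cells lay between -0.26 and 0.55. Of 12 other negative regulators 6 rose and 3 fell in RA+VitC iTreg, 4 rose and 3 fell in TGFβ iTreg, and 3 rose and 5 fell in Treg. The shares that fell in RA+VitC iTreg and rose in Treg are near those of all genes (26.6% and 20%). Ptpn1 and Ptpn2, phosphatases that act on Janus kinases and STATs, rose in RA+VitC iTreg (1.47 and 0.82) and in TGFβ iTreg (0.98 and 0.74) and did not pass in Treg (-0.01 and 0.04). Ptpn6, the phosphatase SHP-1, fell in all 3 (-0.46, -0.46 and -0.34). Of 6 listed symbols of the SOCS-box ubiquitin ligase 3 were tested, of which Eloc (-0.53) and Rnf7 (-0.42) fell in RA+VitC iTreg, Eloc fell in Treg (-0.45), and none passed in TGFβ iTreg (adjusted p 0.071 for Eloc, 0.28 for Rnf7 and 0.69 for Cul5).

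**Figure D5:**
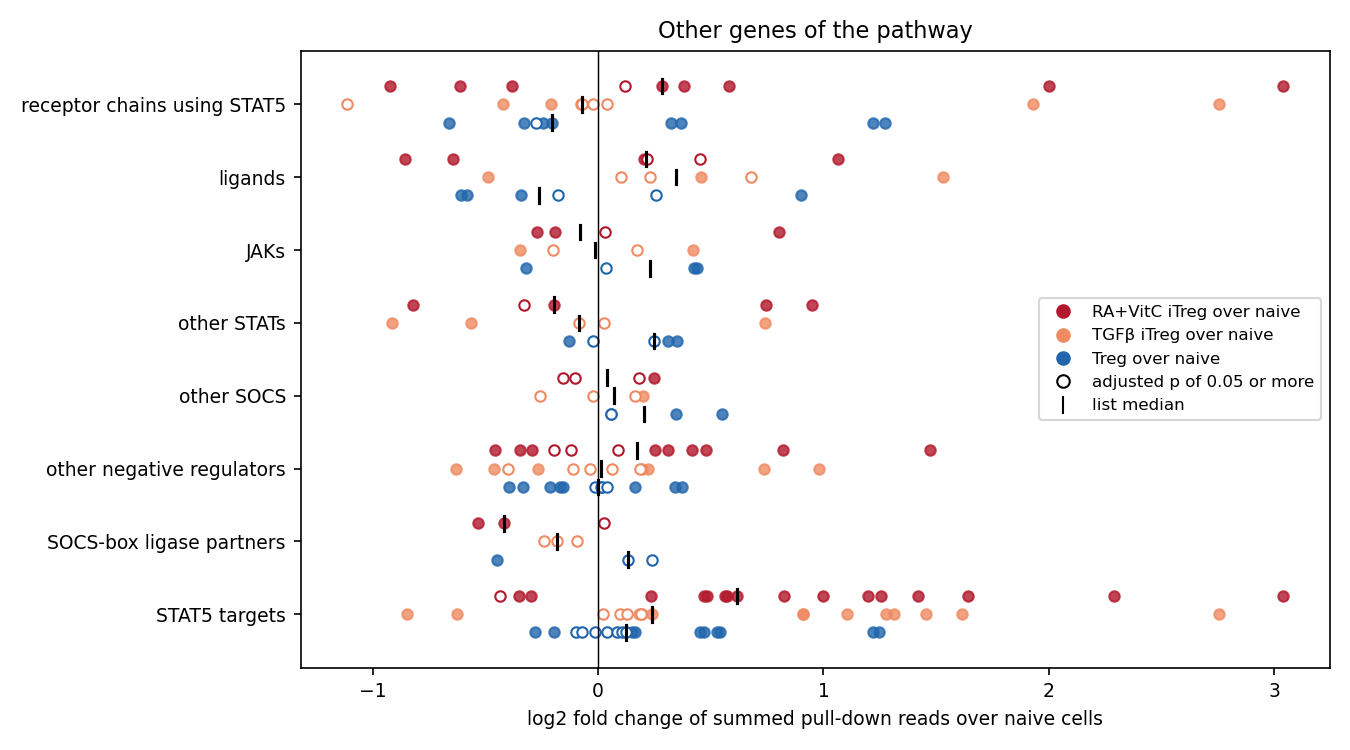
Log2 fold change of summed pull-down reads over naive cells for each gene of the 8 lists, coloured by group, with open points at an adjusted p of 0.05 or more and ticks at the list medians. STAT5 targets in RA+VitC iTreg have the largest median (0.62), and every list, that of STAT5 targets included, has points on both sides of 0.

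The genes whose pattern over the 8 pull-down libraries was most like each member were found by Pearson correlation of log2 CPM among 8186 genes, as a description. For Socs2 they were Ppm1l (r = 0.9992), Pla1a (0.9984) and Popdc2 (0.9976). Pla1a held 260 and 241 CPM in RA+VitC iTreg, 141 and 172 CPM in TGFβ iTreg, 54.7 and 54.8 CPM in Treg, and 19.3 and 18.6 CPM in naive cells, the same order as Socs2. For Cish they were Fam118b (0.9993), Stfa3 (0.9973) and Cntn5 (0.9966), and for Socs1 Lgals2 (0.9978), Kcnj15 (0.9955) and Gzmb (0.9954), the gene of granzyme B. Stfa3 stood at 97.3 and 87.7 CPM in RA+VitC iTreg, 132 and 141 CPM in TGFβ iTreg, 15.3 and 15.7 CPM in Treg, and 3.94 and 5.43 CPM in naive cells, highest in TGFβ iTreg. For Socs3 they were R3hcc1l (0.9834), Dhx40 (0.9816) and Sinhcaf (0.9799), for Stat5a Map4k1 (0.9874), Erbb4 (0.9872) and Triobp (0.9724), and for Stat5b Kdm6b (0.9887), Coro1b (0.9879) and Sh3glb1 (0.9856). The points of each correlation share 8 libraries in 4 groups, and no p is given.

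Regions of other genes within 50000 bp moved in part with the members. Next to Socs2, 3 of 3 Cradd regions rose against naive cells in RA+VitC iTreg, by 2.14 to 3.11 on the log2 scale, and 3 of 3 in TGFβ iTreg, by 2.23 to 2.79, while 1 rose in Treg (0.64). Past Cish, 4 of 5 Hemk1 regions rose in RA+VitC iTreg, TGFβ iTreg and Treg. Their values were 2.46 to 2.95, 1.47 to 2.93 and 1.04 to 1.799. Past Socs1, 11 of 14 Clec16a regions rose in RA+VitC iTreg and 6 in TGFβ iTreg, and in Treg 1 rose and 2 fell. Of all regions 21.9% rose in RA+VitC iTreg, 13.1% rose in TGFβ iTreg, and in Treg 13% rose and 10.1% fell, so the Treg counts of Clec16a are near the background. Beside Stat5a, 4 of 5 tested Stat3 regions rose in RA+VitC iTreg and 2 in Treg. Around Socs3, 5 of 10 tested Pgs1 regions rose in RA+VitC iTreg, 3 rose and 1 fell in TGFβ iTreg, and 1 fell in Treg. Of 8 tested Tha1 regions 4 rose in RA+VitC iTreg, 4 rose and 1 fell in TGFβ iTreg, and 1 fell in Treg. These falls are near the background (8.28% in TGFβ iTreg). On the other side of Cish, 4 of 8 tested Mapkapk3 regions rose in RA+VitC iTreg, 2 in TGFβ iTreg and 2 in Treg. Which gene a region between 2 genes belongs to is set by the table's assignment alone.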

How the data were processed

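5hmC was measured by CMS immunoprecipitation in 8 pull-down and 8 input libraries. The deposited table holds raw read counts per region on mm9, over all broad MACS2 peaks merged (q-value 0.01), per the file headers. The submitters' processing notes name MACS2 2.1.0.20151222, SAMtools 1.7, bcl2fastq 2.20.0.442 and Trim Galore 0.4.2. Which aligner and counter made the table is not given in the sources used here.

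Samples were grouped by their labels. From these counts, edgeR 4.0.16 (R 4.3.3) was fitted to all 8 pull-downs with TMM, group as the only term, filterByExpr (minimum count 10), the quasi-likelihood test and Benjamini-Hochberg adjustment over 135412 regions or 14952 gene sums, at a threshold of 0.05. The fit had 4 residual degrees of freedom, and scripts were tested on simulated data. All adjusted p-values come from edgeR unless DESeq2 (1.42.0) is named. The SE of a log2 fold change is its absolute value divided by the square root of edgeR's F statistic. Inputs were fitted alike. Alternatives were plain library sizes, no filter, equal depth, DESeq2, a fit against input, transcript-overlapping regions, a replicate block, and leaving out each library. Regions named are, per gene, that with the most reads, up to 3 called ones with the largest log2 fold change against naive cells, and those on a promoter or 5′ UTR. Members and lists were chosen with earlier results of these data known. The counts over the list of other STATs are not reported here.

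Replicate numbers, and the tags shared by the iTreg titles, were not taken as pairs: the correlation of deviations of same-numbered libraries was -0.000301 for Treg and naive cells and 0.0123 for the iTreg groups. Chi-square per degree of freedom between replicates was 1.12 to 1.23 for pull-downs (2.79 to 10.9 between groups). For inputs it was 1.00 to 1.01 within groups and up to 1.08 between them, which does not show whether input replicates are separate samples, and they were used as labelled.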

Additional observations from a re-analysis of the deposited data

How the results depend on the processing

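Socs2 and Cish were higher than in naive cells in all 3 groups under every alternative run: Socs2 by 4.07 to 4.62 in RA+VitC iTreg, 3.26 to 3.84 in TGFβ iTreg and 1.47 to 1.79 in Treg, and Cish by 2.69 to 2.98, 2.999 to 3.28 and 1.10 to 1.38 on the log2 scale. Of the single-gene values under alternatives, 471 kept direction and side of the threshold, 19 lost the call, 3 gained one and 23 changed sign. The fit against input, which tests 31 member regions, gave 12 called regions for RA+VitC iTreg against naive cells (23 in the main setting), 11 for TGFβ iTreg (18), 4 for Treg (15), 2 for RA+VitC against TGFβ iTreg (7), and 10 and 8 against Treg (25 and 18), and 2 gene sums between the iTreg groups (4). For Treg against naive cells equal depth gave 7 regions and DESeq2 6. Transcript-overlapping regions alone gave 3 gene sums for RA+VitC iTreg against Treg (5). Leaving out 1 library gave 15 to 25, 12 to 18 and 8 to 15 regions against naive cells, 4 to 9 between iTreg groups, and 17 to 25 and 9 to 18 against Treg. A replicate block gave 3 gene sums and 12 regions for Treg against naive cells, and 4 and 6 between the iTreg groups; it changed no gene count.

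Sign changes were as follows. Stat5a in TGFβ iTreg against naive cells was -0.0445 with plain library sizes and -0.0727 to 0.069 without 1 library. Stat5b in RA+VitC iTreg against naive cells was 0.0021 without a filter, 0.0054 with DESeq2, 0.047 over transcripts and -0.0184 to 0.0202 without 1 library, and against Treg it was -0.12 with plain library sizes (adjusted p 0.0126). Over transcripts alone Socs1 in RA+VitC iTreg was -3.46 against naive cells, -3.60 against TGFβ iTreg and -2.42 against Treg. Socs1 in Treg against naive cells was 0.20 at equal depth and -0.0812 to 0.0641 without 1 library. Between the iTreg groups it was -0.0689 with plain library sizes and -0.13 to 0.26 without 1 library. Socs3 in TGFβ iTreg against naive cells was -0.0246 with plain library sizes and -0.0555 to 0.0913 without 1 library, and in Treg 0.0261 over transcripts. The causes were not tested. Depth limits TGFβ iTreg most, where 3 reads are up to 1.82 CPM.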
